A study of Arabidopsis thaliana with 30 samples.

Results

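Strigolactones are carotenoid-derived hormones that restrain shoot branching and shape root growth in Arabidopsis thaliana. Genes for their synthesis, perception and response were followed across the genotypes of a series on GCN5-containing histone acetyltransferase complexes. The genes are 10 of the 32548 in the deposited table, and they were taken by locus code: D27 (AT1G03055), CCD7 (AT2G44990), CCD8 (AT4G32810), MAX1 (AT2G26170), D14 (AT3G03990), MAX2 (AT2G42620), SMXL6 (AT1G07200), SMXL7 (AT2G29970), SMXL8 (AT2G40130) and BRC1 (AT3G18550). They were chosen by their role in the pathway, but with results of the same libraries in view. CCD7 in the mutant eaf6 was among those results, so eaf6 against Col-0 is described without a test for every gene, and CCD7 is described without a test in every genotype.

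Messenger RNA of whole seedlings aged 12 days was sequenced in 30 libraries, 3 for each of 10 genotypes. The single mutants were eaf6-/-, gcn5-/-, ada2b-/-, ada2a-/-, ing1-/-, spc-/- and sdrl-/-. A pair of double mutants, ada2a-/-spc-/- and spc-/-ing1-/-, is written ada2aspc and spcing1. The wild type was Col-0. All seedlings grew untreated on Murashige and Skoog plates at 22 °C with 16 h of light and 8 h of darkness, and the labels name no allele and no separate growths, so the spread between libraries may be technical.

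In background, the isomerase D27 and the cleavage dioxygenases CCD7 and CCD8 turn a carotenoid into carlactone in the plastid, and the cytochrome P450 MAX1 oxidises carlactone on the way to active hormone. The hormone is bound by the hydrolase D14, which then joins the F-box protein MAX2 and marks the repressors SMXL6, SMXL7 and SMXL8 for degradation. BRC1, a TCP transcription factor that holds back axillary buds, is raised when these repressors are removed, and SMXL6 is known to bind DNA itself and to lower the SMXL6, SMXL7 and SMXL8 genes.

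The values are a normalised signal per gene with no counts, so the read depth behind them is unknown. Column totals lay between 30914000 and 41548748, and between libraries of a genotype Pearson's r across genes lay between 0.979 and 0.984. The transcript of the mutated gene, as a share of Col-0, was 49.2% in gcn5, 72.3% in ada2b, 2.5% in ada2a, 22.5% in ing1, 14.3% in eaf6, and in the double mutants 1.09% for ADA2A in ada2aspc and 20.6% for ING1 in spcing1. The SPC and SDRL loci were not identified here. Differences between groups are log2 fold changes of value + 1 with their SE, adjusted p is limma's with Benjamini-Hochberg adjustment over 21868 genes, and a gene was called at an adjusted p below 0.05. All 10 genes reached a value of 10 in 3 or more libraries, the condition for testing, CCD7 and BRC1 through mutant libraries alone.

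Per kilobase of exon, the level in Col-0 spanned the receptor at the top and the bud repressor at the bottom. The mean signal per kilobase was 1089.9 for D14, 528 for MAX2, 503 for SMXL7, 214 for SMXL6, 191 for MAX1, 145 for D27, 104 for SMXL8, 52.7 for CCD8, 0.963 for CCD7 and 0.159 for BRC1. The spread between genotypes ran almost the other way. The range of genotype means on the log2(value + 1) scale was 6.83 for CCD7, 4.02 for BRC1, 2.54 for D27, 2.47 for CCD8, 1.51 for SMXL8 and 1.15 for MAX1. It was 0.79 for MAX2, 0.78 for SMXL7, 0.65 for D14 and 0.51 for SMXL6. Genes whose Col-0 level is near 0 have ranges that depend on the added 1.

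D27, the beta-carotene isomerase that opens the pathway (chromosome 1, 710018 to 711857, minus strand, TAIR10.1), was lower than Col-0 in every mutant. Its signal was 21.6, 34.5 and 26.5 in eaf6, against 142, 156 and 192 in Col-0, a fold change of -2.54 ± 0.22. With 16 in place of 1 added to each value, this fold change was -2.05. The eaf6 libraries were the lowest of all 30 and did not overlap with the next genotype, ada2aspc. Among the mutants with a test, the signal was 72.3, 63.1 and 47.8 in ada2aspc, 61.0, 59.96 and 63.5 in ada2b, and 79.4, 59.8 and 69.9 in gcn5. These fell by 1.42 ± 0.22 (adjusted p = 5.14e-06), 1.39 ± 0.22 (adjusted p = 5.24e-06) and 1.22 ± 0.22 (adjusted p = 4.96e-05) on the log2 scale against the same Col-0 libraries. The double mutant spcing1 stood at 60.6, 83.0 and 75.4 and fell by 1.16 ± 0.22 (adjusted p = 8.70e-05). The remaining single mutants sat between these and Col-0. D27 averaged 92.4 ± 14.9 in ing1, 98.1 ± 17.2 in sdrl, 98.9 ± 15.4 in spc and 109 ± 18.0 in ada2a, against 164 ± 25.8 in Col-0 (SD, n = 3 each). The changes were -0.82 in ing1 (adjusted p = 0.00431), -0.74 in sdrl (adjusted p = 0.00983), -0.72 in spc (adjusted p = 0.0101) and -0.58 in ada2a (adjusted p = 0.0479). No library of any mutant reached the lowest Col-0 library. The call in ada2a ended without Col-0 replicate 2 or 3 or ada2a replicate 1 or 3 (adjusted p = 0.0806 to 0.188), that in sdrl without Col-0 replicate 3 or sdrl replicate 2 (adjusted p = 0.0607 and 0.0604), and that in spc without Col-0 replicate 3 or spc replicate 3 (adjusted p = 0.0617 and 0.0556).

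CCD7, the next enzyme (chromosome 2, 18558885 to 18561621, plus strand), was close to the lower limit of the table in most genotypes and far above it in eaf6. Its signal was 73.9, 139 and 139 in eaf6, against 1.87, 1.13 and 3.14 in Col-0, a fold change of 5.28 ± 0.81. The eaf6 libraries lay above every other library of the series. The next highest means were 14.5 ± 9.25 in ing1, 9.63 ± 3.23 in spcing1, 9.56 ± 9.07 in ada2a and 9.07 ± 4.55 in sdrl, against 2.05 ± 1.01 in Col-0. The libraries of ing1 (4.49, 16.1 and 22.8), sdrl (4.49, 9.13 and 13.6) and spcing1 (12.5, 10.2 and 6.14) were all above the Col-0 libraries. Those of ada2a (0.296, 9.95 and 18.4), spc (8.25, 2.49 and 8.16) and ada2aspc (2.90, 1.95 and 10.6) overlapped with Col-0. In gcn5 the signal was 3.83 in 1 library and listed at 0 in the others, and in ada2b it was listed at 0 in all 3 libraries. With 16 in place of 1 added to each value, the fold change in eaf6 was 2.85.

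The 250 bases upstream of D27 and CCD7 are shown because these neighbouring steps stood furthest from Col-0, in opposite directions, in eaf6. They were read from the RefSeq genome of TAIR10.1 ahead of the annotated start, at chr1:711858-712107 on the minus strand for D27 and chr2:18558635-18558884 on the plus strand for CCD7, 5′ to 3′ with the start site next after the last base. Neither these nor the upstream stretches of the other 8 genes hold P1BS (GNATATNC), the phosphate starvation element, or a G-box (CACGTG), searched on both strands. Of 27443 upstream regions of protein-coding genes of this length, 5.46% hold P1BS and 6.49% a G-box. The TCP site GGNCCCAC was in none of the 10 and in 1.09% of all, and the evening element AAAATATCT was in SMXL8 alone and in 2.36% of all.
D27: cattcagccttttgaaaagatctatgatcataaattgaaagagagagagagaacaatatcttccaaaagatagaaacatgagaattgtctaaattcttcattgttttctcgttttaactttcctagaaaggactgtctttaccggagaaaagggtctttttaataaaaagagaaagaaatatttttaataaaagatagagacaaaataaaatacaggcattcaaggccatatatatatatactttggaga
CCD7: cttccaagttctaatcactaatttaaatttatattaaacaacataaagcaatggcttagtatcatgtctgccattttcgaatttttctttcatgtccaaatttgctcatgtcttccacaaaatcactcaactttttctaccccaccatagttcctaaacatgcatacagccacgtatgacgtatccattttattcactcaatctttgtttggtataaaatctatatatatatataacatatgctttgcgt

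CCD8, which makes carlactone (chromosome 4, 15828228 to 15831492, plus strand), was higher in eaf6 and gcn5. Its signal was 332, 466 and 448 in eaf6, against 144, 65.3 and 123 in Col-0, a fold change of 1.96 ± 0.39 with no overlap. In gcn5 it was 314, 349 and 126, and CCD8 rose by 1.19 ± 0.39 (adjusted p = 0.0143), although the lowest gcn5 library lay within the Col-0 range. That call ended without Col-0 replicate 2 (adjusted p = 0.116), gcn5 replicate 1 (adjusted p = 0.0739) or gcn5 replicate 2 (adjusted p = 0.0933). In the other mutants the means lay between 79.2 ± 33.7 in spcing1 and 161 ± 22.6 in ada2b, against 111 ± 40.8 in Col-0, and none was called. The largest of these differences was 0.60 ± 0.39 in ada2b (adjusted p = 0.198). CCD8 shares 330 bases with AT4G32820 on the other strand, and strand use in the counting was not given in the sources used here. AT4G32820 averaged 1371 in eaf6 and 1627 in gcn5, against 1661 in Col-0. Shorter overlaps with a gene on the other strand were 71 bases in MAX1, 156 in SMXL8 and 24 in D27.

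MAX1 (chromosome 2, 11140809 to 11143360, plus strand) moved within narrower bounds. Its signal was 605, 593 and 629 in eaf6, 261, 276 and 283 in ada2b, and 389.8, 324 and 328 in Col-0. The eaf6 libraries were above and the ada2b libraries below those of every other genotype. The fold change was 0.81 ± 0.10 in eaf6, and in ada2b MAX1 fell by 0.34 ± 0.10 (adjusted p = 0.00699). It rose in spc (0.53, adjusted p = 0.000118), ada2aspc (0.50, adjusted p = 0.000189), ing1 (0.41, adjusted p = 0.00208), ada2a (0.32, adjusted p = 0.0168) and spcing1 (0.26, adjusted p = 0.0398), each with an SE of 0.10. In gcn5 (0.21, adjusted p = 0.0977) and sdrl (0.06, adjusted p = 0.696) it was not called, but gcn5 was called without Col-0 replicate 1 (adjusted p = 0.0337) or gcn5 replicate 3 (adjusted p = 0.0187). The call in ada2b ended without Col-0 replicate 1 (adjusted p = 0.0643), that in ada2a without Col-0 replicate 2 or 3 or ada2a replicate 2 (adjusted p = 0.0708 to 0.0826), and that in spcing1 without Col-0 replicate 2 or 3 or any 1 spcing1 library (adjusted p = 0.0577 to 0.147). With values divided by column totals, which moves the median of all genes to 0.17 in gcn5 and 0.27 in ada2b, the call ended in ada2b (-0.08, adjusted p = 0.522), ada2a (adjusted p = 0.0631) and spcing1 (adjusted p = 0.210), while gcn5 was called at 0.41.

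**Figure D1:**
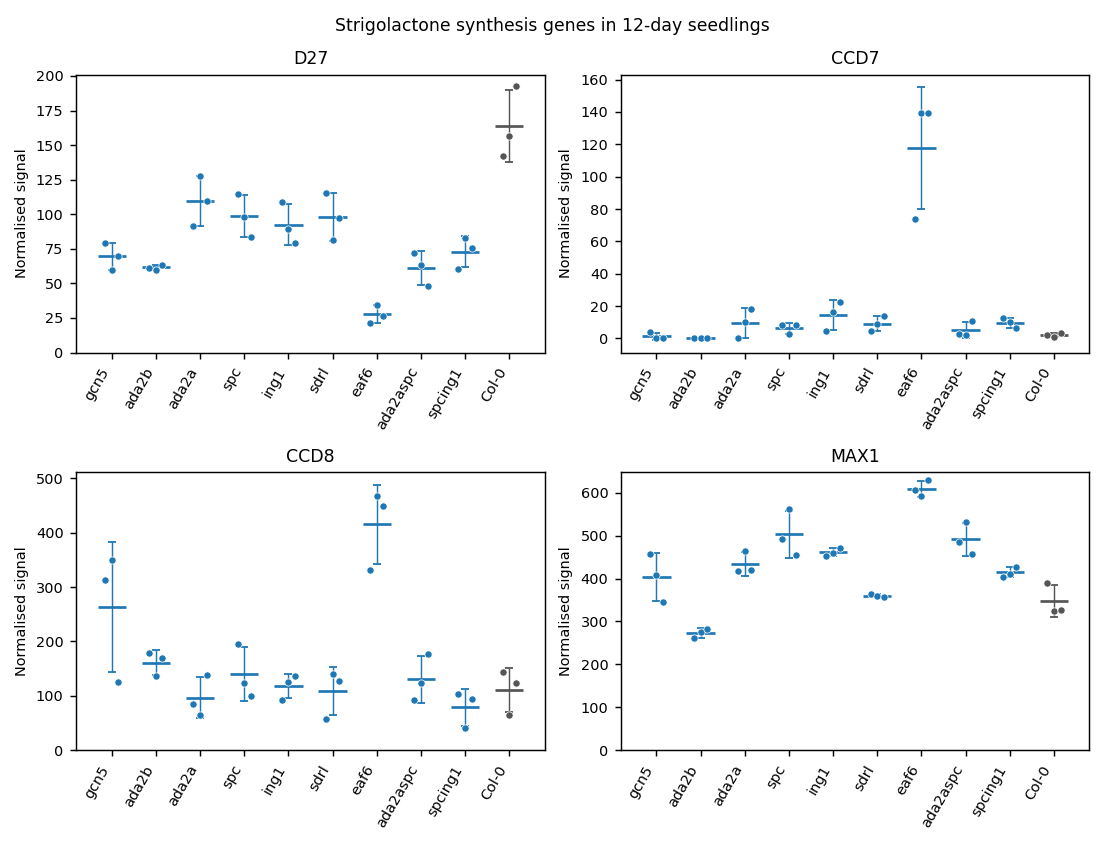
Normalised signal of the synthesis genes D27, CCD7, CCD8 and MAX1 (vertical axes, linear) in each library (points), with the mean (bar) and SD (whiskers) of 3 libraries per genotype, mutants in blue and Col-0 in grey. D27 is highest in Col-0, at 142 to 192, and lowest in eaf6, at 21.6 to 34.5, while CCD7 reaches 73.9 to 139 in eaf6 alone.

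The receptor gene D14 (chromosome 3, 1033579 to 1035237, plus strand) rose in 6 of the 8 mutants with a test, the exceptions being gcn5 and ada2b. Its signal was 2379, 2821 and 2722 in spc, 2493, 2549.8 and 2391 in ada2aspc, and 1807, 1909 and 1708 in Col-0. The rises were 0.54 in spc (adjusted p = 2.83e-06), 0.46 in ada2aspc (adjusted p = 2.85e-05), 0.44 in spcing1 (adjusted p = 4.70e-05), 0.39 in sdrl (adjusted p = 0.000319), 0.37 in ing1 (adjusted p = 0.000479) and 0.35 in ada2a (adjusted p = 0.00135), each with an SE of 0.08. In these 6 mutants every library lay above every Col-0 library. D14 was at 1938, 1784 and 2104 in gcn5 (0.10, adjusted p = 0.330) and at 1647, 1637 and 1739.6 in ada2b (-0.11, adjusted p = 0.264), both overlapping with Col-0. In eaf6 it was at 2167, 2024 and 2419.5, above the Col-0 libraries, with a fold change of 0.28 ± 0.08. With column totals gcn5 was called as well, at 0.30 (adjusted p = 0.00147).

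MAX2, the F-box partner of D14 (chromosome 2, 17756069 to 17758468, plus strand), was called in the same 6 mutants, and each of these contrasts shares the Col-0 libraries. Its signal was 1984, 1744 and 2079.8 in ada2aspc, 1754, 2053 and 1864 in spcing1, and 1271, 1369 and 1159 in Col-0. MAX2 rose by 0.61 in ada2aspc (adjusted p = 2.04e-06), 0.58 in spcing1 (adjusted p = 4.85e-06), 0.45 in ing1 (adjusted p = 0.000209), 0.36 in spc (adjusted p = 0.00211) and in sdrl (adjusted p = 0.00239), and 0.32 in ada2a (adjusted p = 0.00727), each with an SE of 0.09. Again all libraries of these mutants were above Col-0. In gcn5 (998, 1180.3 and 1195) and ada2b (1035, 1137 and 1175) MAX2 overlapped with Col-0 and was not called (-0.17, adjusted p = 0.127, and -0.18, adjusted p = 0.0941). In eaf6 it was at 1502, 1543 and 1502, a fold change of 0.26 ± 0.09 with no overlap. Without Col-0 replicate 3 the call in ada2a ended (adjusted p = 0.0566) and ada2b was called as lower (adjusted p = 0.0450).

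The 3 repressor genes did not move as a group. SMXL7 (chromosome 2, 12776208 to 12780069, plus strand) was lower than Col-0 in every mutant. Its signal was 1073, 1129.5 and 1039 in spcing1, 1088, 981 and 1217 in ada2aspc, and 1209.8, 1085 and 996 in sdrl, against 1853, 1909 and 1805 in Col-0. No mutant library reached the lowest Col-0 library. SMXL7 fell by 0.78 in spcing1 (adjusted p = 1.72e-07), 0.77 in ada2aspc (adjusted p = 2.48e-07), 0.76 in sdrl (adjusted p = 3.50e-07), 0.66 in ing1 (adjusted p = 3.89e-06), 0.55 in spc (adjusted p = 4.69e-05), 0.50 in ada2a (adjusted p = 0.000267), 0.47 in ada2b (adjusted p = 0.000239) and 0.29 in gcn5 (adjusted p = 0.0200), each with an SE of 0.10. In eaf6 it was at 1181, 1302 and 1101, a fold change of -0.64 ± 0.10. With column totals it was not called in gcn5 (-0.09, adjusted p = 0.469) or ada2b (-0.21, adjusted p = 0.0688), and the call in gcn5 also ended without Col-0 replicate 2 (adjusted p = 0.0648) or gcn5 replicate 2 (adjusted p = 0.0983).

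SMXL6 (chromosome 1, 2208477 to 2212718, minus strand), the closest relative of SMXL7, stood on the other side of Col-0. Its signal was 1185, 1121 and 1429.9 in ada2b, 1039, 1087 and 1291 in ada2aspc, and 1097, 1082 and 1184 in eaf6, against 883, 888 and 838 in Col-0. Every mutant library lay above every Col-0 library. SMXL6 rose by 0.51 in ada2b (adjusted p = 8.20e-05), 0.38 in ada2aspc (adjusted p = 0.00221), 0.32 in spc (adjusted p = 0.0113) and 0.25 in ing1 (adjusted p = 0.0456), each with an SE of 0.10. It was not called in gcn5 (0.20, adjusted p = 0.109), ada2a (0.13, adjusted p = 0.351), sdrl (0.18, adjusted p = 0.161) and spcing1 (0.21, adjusted p = 0.0911), and the fold change in eaf6 was 0.36 ± 0.10. With column totals the value in gcn5 was 0.40 and called (adjusted p = 0.000758). The call in ing1 ended without any 1 of the Col-0 or ing1 libraries (adjusted p = 0.0613 to 0.130), and that in spc without spc replicate 3 (adjusted p = 0.0574).

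SMXL8 (chromosome 2, 16765709 to 16769279, plus strand) split the mutants. Its signal was 131, 110.0 and 124 in ada2b, 186, 172 and 196 in sdrl, 199, 176 and 190.2 in ada2aspc, and 186, 226 and 158 in spcing1, against 329, 294 and 393 in Col-0. These libraries were all below Col-0, and ada2b was below every other genotype. SMXL8 fell by 1.46 in ada2b (adjusted p = 3.80e-09), 0.86 in sdrl (adjusted p = 5.22e-05), 0.84 in ada2aspc (adjusted p = 5.82e-05), 0.83 in spcing1 (adjusted p = 5.92e-05) and 0.42 in ing1 (adjusted p = 0.0342), each with an SE of 0.16. It was not called in gcn5 (279.8, 300.1 and 228, with a fold change of -0.33 and adjusted p = 0.0894), ada2a (-0.04, adjusted p = 0.867) or spc (0.05, adjusted p = 0.835), and eaf6 (332, 363 and 309) overlapped with Col-0. The call in ing1 ended without Col-0 replicate 1 or 3 or any 1 ing1 library (adjusted p = 0.0546 to 0.180).

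The 250 bases upstream of SMXL7 and SMXL6 are shown because the pair lay on opposite sides of Col-0 and because SMXL6 protein is known to bind ATAACAA in the promoters of its own group. They are chr2:12775958-12776207 on the plus strand for SMXL7 and chr1:2212719-2212968 on the minus strand for SMXL6, from RefSeq's TAIR10.1, 5′ to 3′ up to the start site, with ATAACAA in capitals where a search of both strands found it. SMXL7 holds 2 copies, from base 26 to base 20 and from base 16 to base 10 before the start. This stretch of SMXL6 holds none, nor did those of the other 8 genes. The same 7 letters occur in 11.6% of the 27443 upstream regions.
SMXL7: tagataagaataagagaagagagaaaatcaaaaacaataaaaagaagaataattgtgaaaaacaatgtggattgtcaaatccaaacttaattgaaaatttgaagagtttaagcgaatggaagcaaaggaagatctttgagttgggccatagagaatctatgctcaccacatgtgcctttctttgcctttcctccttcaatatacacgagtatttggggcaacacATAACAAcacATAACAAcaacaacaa
SMXL6: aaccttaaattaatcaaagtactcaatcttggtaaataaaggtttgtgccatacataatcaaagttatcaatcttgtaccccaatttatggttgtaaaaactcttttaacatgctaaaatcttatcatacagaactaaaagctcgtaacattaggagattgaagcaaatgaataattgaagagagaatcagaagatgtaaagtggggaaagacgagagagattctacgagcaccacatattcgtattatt

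BRC1, the TCP factor downstream of the repressors (chromosome 3, 6383289 to 6385815, plus strand), was near 0 in Col-0 and low in all genotypes. Its signal was 24.8, 25.3 and 12.1 in sdrl, 17.6, 20.8 and 3.69 in ada2aspc, and 11.5, 18.5 and 4.12 in spcing1, against 0, 1.07 and 0.00434 in Col-0. These 3 mutants did not overlap with Col-0. BRC1 rose by 4.02 in sdrl (adjusted p = 0.000459), 3.28 in ada2aspc (adjusted p = 0.00258) and 3.08 in spcing1 (adjusted p = 0.00441), each with an SE of 0.87. It was also called in ing1 (13.7, 6.04 and 3.94, with a fold change of 2.65 and adjusted p = 0.0169), spc (22.6, 0.351 and 14.3, with a fold change of 2.63 and adjusted p = 0.0162), ada2a (13.4, 4.97 and 4.17, with a fold change of 2.58 and adjusted p = 0.0236) and ada2b (2.95, 2.61 and 10.106, with a fold change of 2.09 and adjusted p = 0.0444). BRC1 passed the filter through mutant libraries alone, and with no filter the same 7 mutants were called (adjusted p = 0.000473 in sdrl to 0.0459 in ada2b). The spc libraries overlapped with Col-0. In gcn5 BRC1 was at 4.76, 1.28 and 0 (0.89, adjusted p = 0.437), and in eaf6 at 2.06, 1.82 and 4.33, above the Col-0 libraries. With 16 added in place of 1 the rises were 1.15 in sdrl, 0.83 in ada2aspc, 0.71 in spcing1 and 0.71 in spc, still called, and the calls ended in ing1, ada2a and ada2b (adjusted p = 0.135, 0.170 and 0.282). Those in ing1, ada2a, ada2b and spc also ended without Col-0 replicate 1 or 3, without ing1 replicate 1, ada2a replicate 1, ada2b replicate 1 or 3, or spc replicate 1 or 3 (adjusted p = 0.0509 to 0.184).

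**Figure D2:**
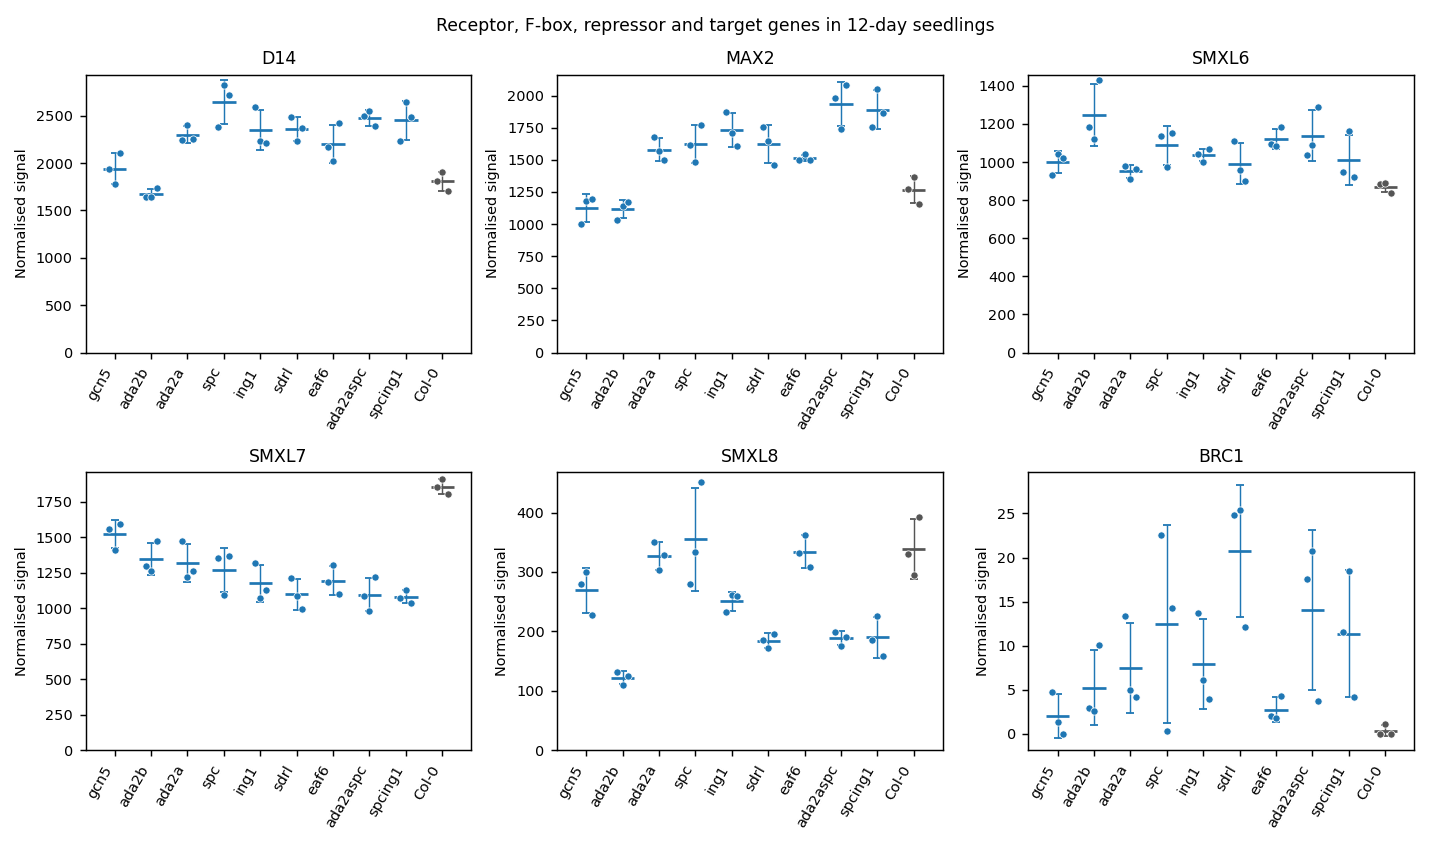
Normalised signal of D14, MAX2, SMXL6, SMXL7, SMXL8 and BRC1 (vertical axes, linear) in each library (points), with the mean (bar) and SD (whiskers) of 3 libraries per genotype, mutants in blue and Col-0 in grey. SMXL7 is below and SMXL6 above the Col-0 libraries in every mutant, D14 and MAX2 in gcn5 and ada2b overlap with Col-0, and BRC1 reaches 25.3 in sdrl.

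BRC1 was tested only because mutant libraries carried it past the filter, so calls were counted over the 8 genes other than CCD7 and BRC1. In ing1 and ada2aspc 7 of the 8 were called, 4 higher and 3 lower, where 35.7% and 44.4% of all tested genes were. In spc 6 were called, 4 higher and 2 lower (39.9% of all genes), and in spcing1 6, 3 higher and 3 lower (44.9%). In ada2b 5 were called, 1 higher and 4 lower (51.6%), in ada2a 5, 3 higher and 2 lower (29.7%), and in sdrl 5, 2 higher and 3 lower (35.8%). In gcn5 3 were called, 1 higher and 2 lower, where 42.7% of all genes were, a share near that of all genes. The median fold change of the 8 genes was 0.33 in spc, 0.32 in ada2aspc, 0.20 in ing1, 0.04 in ada2a, 0.00 in sdrl, -0.04 in gcn5, -0.15 in spcing1 and -0.26 in ada2b, where the median of all genes lay between -0.05 and 0.01. With BRC1 as a ninth gene 1 higher call was added in each of these mutants but gcn5, and the median was 0.10 in gcn5 and 0.21 in spcing1, on the other side of 0. Of the 8 genes other than CCD7 and BRC1, all but SMXL8 did not overlap with Col-0 in eaf6, where 59.7% of all genes did not. The counts with BRC1, which were 6 in ada2a, 8 in ing1, 7 in spc and 3 in gcn5, moved by more than 1.5 times when single libraries were left out, to 2 in ada2a without Col-0 replicate 3, to 5 in ing1 without Col-0 replicate 1 or 3 or ing1 replicate 1, to 4 in spc without spc replicate 3, and to 1 in gcn5 without Col-0 replicate 2 or gcn5 replicate 2.

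**Figure D3:**
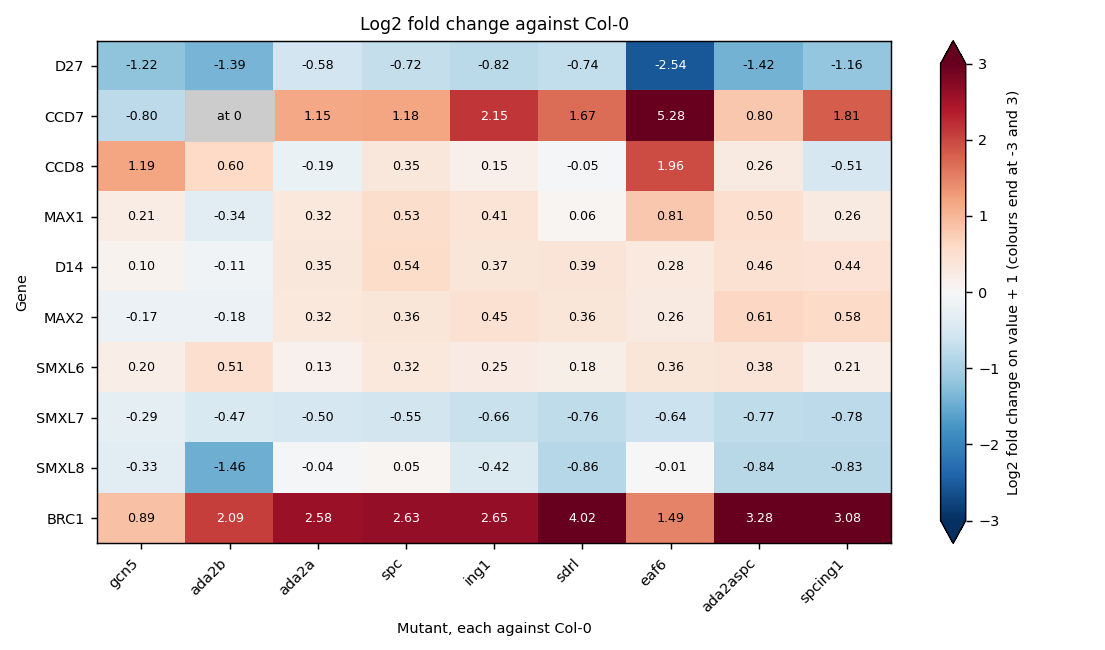
Log2 fold change on value + 1 of each gene (rows) in each mutant against Col-0 (columns), printed in each cell and coloured from blue (lower in the mutant) through white to red (higher), with colours ending at -3 and 3 and a grey cell where a gene was listed at 0 in all libraries of a mutant. D27 and SMXL7 are blue in all 9 columns, BRC1 is red in all 9, and MAX2 and D14 change from pale blue in ada2b, at -0.18 and -0.11, to pale red in ada2aspc, at 0.61 and 0.46.

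GCN5 and ADA2B work in the same histone acetyltransferase module, and their mutants were compared directly. Of the 8 genes other than CCD7 and BRC1, 4 were called in ada2b against gcn5, 1 higher and 3 lower. With BRC1, which was not called (adjusted p = 0.277), the share was 44.4%, near the 42.1% of all genes called. SMXL8 was at 122 ± 10.8 in ada2b and 269 ± 37.4 in gcn5, and fell by 1.13 ± 0.16 (adjusted p = 1.12e-06). MAX1 was at 273 ± 10.99 in ada2b and 404 ± 56.2 in gcn5, and fell by 0.55 ± 0.10 (adjusted p = 8.47e-05). SMXL6 was higher in ada2b by 0.31 ± 0.10 (adjusted p = 0.0125) and D14 lower by 0.21 on the log2 scale (-0.21 ± 0.08, adjusted p = 0.0354). D27 (-0.17 ± 0.22, adjusted p = 0.570), SMXL7 (-0.18 ± 0.10, adjusted p = 0.148), MAX2 (-0.01 ± 0.09, adjusted p = 0.949) and CCD8 (-0.58 ± 0.39, adjusted p = 0.237) were not called, although CCD8 was without gcn5 replicate 3 (adjusted p = 0.0374). The call of D14 ended without ada2b replicate 1 or 2 or gcn5 replicate 1 or 3 (adjusted p = 0.0724 to 0.177) and with column totals (adjusted p = 0.114), and that of SMXL6 without ada2b replicate 3 or gcn5 replicate 1 (adjusted p = 0.119 and 0.0656), which left 2 calls without gcn5 replicate 1.

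The double mutants were set against their single mutants. In ada2aspc against ada2a 3 of the 8 genes other than CCD7 and BRC1 were called, 1 higher and 2 lower (14.7% of all genes). Against spc 2 were called, both lower (11.9% of all genes). SMXL8 was at 188 ± 11.9 in ada2aspc, against 327 ± 23.8 in ada2a and 355 ± 87.1 in spc. All ada2aspc libraries were below those of both single mutants, and SMXL8 fell by 0.79 ± 0.16 against ada2a (adjusted p = 0.000624) and by 0.88 ± 0.16 against spc (adjusted p = 0.000195). D27 was at 61.1 ± 12.4 in ada2aspc, against 109 ± 18.0 in ada2a and 98.9 ± 15.4 in spc. It fell by 0.84 ± 0.22 against ada2a (adjusted p = 0.00983) and by 0.69 ± 0.22 against spc (adjusted p = 0.0377), again with no overlap. MAX2 was higher in ada2aspc than in ada2a by 0.29 ± 0.09 (adjusted p = 0.0280), with 0.25 ± 0.09 against spc not called (adjusted p = 0.0643) unless ada2aspc replicate 2 or spc replicate 3 was left out (adjusted p = 0.0299 and 0.0395). SMXL7 was lower than in ada2a by 0.27 ± 0.10 on the log2 scale (-0.27, adjusted p = 0.0708), a difference called without ada2aspc replicate 3 (adjusted p = 0.0367). The D27 call against ada2a ended without ada2a replicate 2 or ada2aspc replicate 3 (adjusted p = 0.0634 and 0.0719), the D27 call against spc without ada2aspc replicate 2 or 3 or spc replicate 1 or 2 (adjusted p = 0.0668 to 0.195), and the MAX2 call without ada2a replicate 2 or 3 or ada2aspc replicate 1 or 3 (adjusted p = 0.0766 to 0.135). These left 1 call against ada2a without ada2a replicate 2, and 1 against spc without ada2aspc replicate 3 or spc replicate 1 or 2.

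In spcing1 SMXL8 was the 1 gene called against spc, where 7.06% of all genes were. It was at 190.2 ± 34.3 in spcing1 and 355 ± 87.1 in spc, and fell by 0.88 ± 0.16 (adjusted p = 0.000270) with no overlap. Against ing1, at 251 ± 16.0, the spcing1 libraries were also all lower, but the difference of -0.41 ± 0.16 was not called (adjusted p = 0.166). In that contrast limma called 0 of the 8 genes other than CCD7 and BRC1, where 2.82% of all genes were called. With BRC1 counted, 1 of 9 genes, SMXL8, had an unadjusted p below 0.05. Against spc 5 of these 9 genes had an unadjusted p below 0.05. Besides SMXL8 these were MAX1 (-0.27, adjusted p = 0.116), CCD8 (-0.86, adjusted p = 0.212), MAX2 (0.22, adjusted p = 0.155) and SMXL7 (-0.23, adjusted p = 0.198), none of them called. D27 was at 73.0 ± 11.4 in spcing1, against 98.9 ± 15.4 in spc and 92.4 ± 14.9 in ing1, with differences of -0.43 ± 0.22 (adjusted p = 0.292) and -0.34 ± 0.22 (adjusted p = 0.489). BRC1 differed by 0.45 ± 0.87 from spc (adjusted p = 0.842) and by 0.43 ± 0.87 from ing1 (adjusted p = 0.874), and was called in neither contrast.

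**Figure D4:**
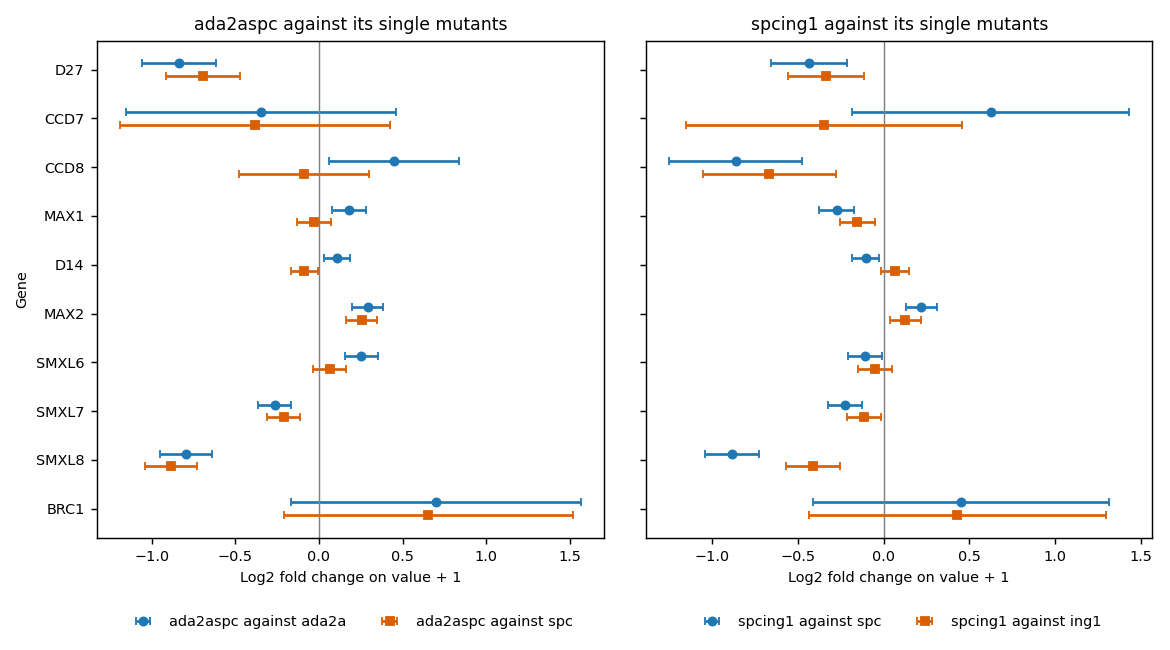
Log2 fold change on value + 1 (horizontal axis, whiskers are SE) of each gene in ada2aspc against ada2a (blue circles) and spc (orange squares), left, and in spcing1 against spc (blue circles) and ing1 (orange squares), right. SMXL8 lies at -0.79 and -0.88 on the left and at -0.88 and -0.41 on the right, and D27 at -0.84 and -0.69 on the left.

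Of 24 other genes of strigolactone and karrikin signalling, 4 rose and 8 fell in gcn5 and 6 rose and 10 fell in ada2b. These are 12 and 16 of 24, where 42.7% of all genes were called in gcn5 and 51.6% in ada2b. In the others with a test more rose than fell, with 10 and 0 in ada2aspc, 8 and 1 in spc, 8 and 1 in spcing1, 5 and 0 in ada2a, 5 and 0 in ing1 and 4 and 0 in sdrl. The share of the 24 called, between 16.7% in sdrl and 41.7% in ada2aspc, was below that of all genes for each of these 6. Their median fold change was -0.05 in gcn5, -0.21 in ada2b and between 0.06 and 0.29 in the other 6 mutants. Karrikins are smoke-derived signals read by KAI2, a relative of D14, through MAX2 and SMAX1, a relative of the SMXL repressors. KAI2 averaged 1688 ± 146 in ada2b, 2494 ± 78.3 in gcn5 and 3433 ± 98.0 in Col-0, and fell by 1.03 ± 0.08 in ada2b (adjusted p = 3.41e-12) and 0.46 ± 0.08 in gcn5 (adjusted p = 1.95e-05). The difference between ada2b and gcn5 was called as well (-0.57 ± 0.08, adjusted p = 1.23e-06). In the other 6 mutants KAI2 was not called. SMAX1 rose in ada2b (0.41, adjusted p = 0.000602), spc (0.68, adjusted p = 1.08e-06), ada2a (0.63, adjusted p = 6.56e-06), ing1 (0.59, adjusted p = 1.34e-05), ada2aspc (0.56, adjusted p = 1.77e-05), spcing1 (0.55, adjusted p = 2.03e-05) and sdrl (0.39, adjusted p = 0.00176), but was not called in gcn5 (0.06, adjusted p = 0.672).

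LBO, an oxygenase that acts after MAX1, averaged 115.8 ± 18.6 in ada2b, 205 ± 52.1 in gcn5 and 288 ± 4.31 in Col-0. It fell by 1.32 ± 0.17 in ada2b (adjusted p = 1.46e-07) and 0.52 ± 0.17 in gcn5 (adjusted p = 0.0146), and rose by 0.42 ± 0.17 in ada2aspc (adjusted p = 0.0477). The methyltransferase-family locus AT4G36470 fell by 1.75 ± 0.19 in ada2b (adjusted p = 4.17e-09), and was lower there than in gcn5 (-1.07 ± 0.19, adjusted p = 3.71e-05). BBX20, a B-box zinc finger gene of the karrikin response, rose at least 2-fold in all 8 mutants with a test. It was at 181 ± 23.1 in spcing1 (2.26 ± 0.24, adjusted p = 7.33e-09) and 88.5 ± 1.12 in ada2a (1.24 ± 0.24, adjusted p = 0.000218), the extremes of these rises, against 37.2 ± 6.42 in Col-0. In gcn5 the homeobox gene HB21, which acts below BRC1 in buds, fell by 2.50 ± 0.53 (adjusted p = 0.000346), and the hydrolase-family locus AT3G24420 rose by 1.11 ± 0.32 (adjusted p = 0.00515). HB53, a relative of HB21, rose by 1.32 ± 0.53 in spcing1 (adjusted p = 0.0417). BRC2, the nearest relative of BRC1, averaged between 3.24 and 19.6 in the mutants with a test, against 6.89 in Col-0, and was called in none of them.

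In whole seedlings, fewer cells of a type and less RNA per cell cannot be told apart. The summed level of 16 shoot green tissue genes was 954987 to 968964 in gcn5, 630309 to 810895 in ada2b and 1441010 to 1647040 in eaf6, against 2212020 to 2259960 in Col-0. In gcn5 and ada2b 16 of 16 fell, and in the other 6 mutants with a test between 2 and 7 fell and 0 rose, a share between 12.5% and 43.8% that in each was below that of all genes. The summed level of 16 root genes was 7116 to 7817 in gcn5, 7399 to 9279 in ada2b and 5845 to 5956 in eaf6, against 5899 to 8103 in Col-0. Among the root genes 6 rose and 1 fell in gcn5, 7 rose and 2 fell in ada2b, and 0 or 1 rose and 2 to 6 fell in the other 6. The share of root genes called was 43.8% in gcn5 and 56.2% in ada2b, near the 42.7% and 51.6% of all genes, and 12.5% to 43.8% in the other 6, where 29.7% to 44.9% of all genes were called. D27 and SMXL7 were lower than in Col-0 in gcn5, ada2b and eaf6, and in the other 6 mutants as well. D27 changed by -1.22 in gcn5, -1.39 in ada2b and -2.54 in eaf6. In the other 6 it changed by between -0.58 in ada2a and -1.42 in ada2aspc. SMXL7 changed by -0.29 in gcn5, -0.47 in ada2b and -0.64 in eaf6, and by between -0.50 in ada2a and -0.78 in spcing1 in the other 6. The part of shoot and root share in these changes was not tested. All 16 genes of both lists passed the filter on low values.

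The 3 of the 10 genes had the widest range over genotypes, and the genes with the most similar pattern over the 10 genotype means were looked up among 21868. For CCD7 these were AT1G14430, annotated as glyoxal oxidase-related (Pearson's r = 0.973), the late embryogenesis abundant family locus AT5G22200 (r = 0.972) and the C1 domain locus AT3G06990 (r = 0.967). For BRC1 they were AT5G51150 of the Tim17/Tim22/Tim23 family (r = 0.964), the RING/U-box locus AT3G13430 (r = 0.964) and GP ALPHA 1, AT2G26300 (r = 0.953). For D27 they were the RING/U-box locus AT4G31450 (r = 0.979), the thioredoxin superfamily locus AT5G65840 (r = 0.976) and AT2G38780, annotated as a cytochrome C oxidase subunit (r = 0.976). These are highest values out of all tested genes over 10 points that share the same libraries. CCD7 averaged 118 in eaf6 and 14.5 or less in every other genotype. How far its r values rest on eaf6 was not tested.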

How the data were processed

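Messenger RNA of 30 seedling libraries was measured. The authors deposited a normalised signal per gene for 32548 genes, with values that are not whole and no stated scaling. The tools the authors name, per the submitters' processing notes, are edgeR, HISAT2 and bcl2fastq, with the genome build TAIR10. Their versions, the read counter and the strand setting are not given in the sources used here. Values below 1e-06 were set to 0. As the values are not counts, limma 3.58.1 in R 4.3.3 was fitted to all 30 libraries on the log2(value + 1) scale, with genotype as the factor, 20 residual degrees of freedom and a mean-variance trend. Genes reaching 10 in 3 or more libraries were tested, 21868 in all, with Benjamini-Hochberg adjustment at 0.05. The fit was also run on simulated normal noise with shifts in gcn5 alone, as a check of the code and not of its assumptions. Contrasts were each mutant against Col-0, ada2b against gcn5, and each double mutant against its single mutants.

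The 10 genes and the other gene lists were chosen with earlier results of these data known. Of the other lists, genes past the threshold with a change of at least 2-fold were named, at most 3 per contrast from the strigolactone and karrikin list and 2 from each other list, together with LBO, KAI2, SMAX1 and BRC2. Names, coordinates and upstream sequence came from RefSeq's TAIR10.1. Alternatives were median-ratio size factors, column totals, no filter, a pseudocount of 16, a replicate block, only the groups compared, and leaving out each library. Plots used matplotlib 3.10.9 in Python 3.11.15.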

Additional observations from a re-analysis of the deposited data

How the results depend on the processing

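Of 61 called fold changes, 40 stayed called whichever library was left out, and none changed direction under any alternative run. Counts of called genes, BRC1 included, ranged, with a library left out, from 2 to 5 in ada2a (6 with all), 5 to 7 in ing1 (8), 1 to 4 in gcn5 (3), 4 to 7 in spc (7), 2 to 4 in ada2b against gcn5 (4), 1 to 3 in ada2aspc against ada2a (3) and 1 to 3 in ada2aspc against spc (2). Column totals took gcn5 to 5 called, with SMXL6 at 0.40 (adjusted p = 0.000758) added, and ended SMXL6 in ing1 (adjusted p = 0.111). Without the filter, and with only the groups compared, ada2aspc against spc had 1, as D27 ended (adjusted p = 0.0538 and 0.103). No filter and size factors ended D27 in ada2a (adjusted p = 0.0657 and 0.0566), no filter SMXL6 in ing1 (adjusted p = 0.0551), and only the groups compared MAX1 in ada2a and spcing1 (adjusted p = 0.0593 and 0.102) and D14 in ada2b against gcn5 (adjusted p = 0.0617). The cause was not tested.

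Uncalled values changed sign with column totals for D14 in ada2b (0.15), MAX2 in ada2b (0.081), in gcn5 (0.026) and in ada2b against gcn5 (0.055), MAX1 in sdrl (-0.015) and SMXL8 in spc (-0.039), and with a pseudocount of 16 for BRC1 in spcing1 against spc (-0.00069). With single libraries left out, uncalled values with both signs ranged for CCD8 from -0.53 to 0.051 in ada2a, -0.39 to 0.35 in sdrl, -0.19 to 0.38 in ing1, -0.079 to 0.49 in ada2aspc and -0.33 to 0.18 in ada2aspc against spc. They ranged for SMXL8 from -0.14 to 0.20 in spc and -0.14 to 0.068 in ada2a, and for MAX2 from -0.092 to 0.044 in ada2b against gcn5. In ada2aspc against spc they ranged from -0.10 to 0.052 for MAX1, -0.029 to 0.13 for SMXL6 and -0.62 to 1.45 for BRC1, in spcing1 against spc from -0.82 to 1.25 for BRC1, and in spcing1 against ing1 from -0.15 to 0.015 for SMXL6. None of the values with a changed sign was called.

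Replicate numbers did not pair the libraries: deviations of libraries with the same number had a median correlation of 0.0001 over 135 pairs (-0.111 to 0.0870). With the replicate number as a block, D27 in ada2a (adjusted p = 0.0563) and SMXL6 in ing1 (adjusted p = 0.05002) were not called, and no count moved by over 1.5 times. The read depth is unknown, so its part in the spread of CCD7 and BRC1, whose Col-0 values lie between 0 and 3.14, was not tested.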

Other observations

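Carotenoid synthesis genes fell in gcn5, and most of them fell in ada2b, ada2aspc and ing1. The list holds steps toward beta-carotene, from which strigolactones are made, and also LCYE, BCH1 and BCH2, which lead away from it. Of 8 carotenoid synthesis genes, 8 fell and 0 rose in gcn5, 7 and 0 in ada2b, 6 and 0 in ada2aspc, 5 and 0 in ing1, 4 and 0 in sdrl, 2 and 0 in ada2a and in spcing1, and 2 fell and 1 rose in spc. The calls in ada2a, spcing1 and spc, at 25%, 25% and 37.5% of the 8 genes, were below the 29.7%, 44.9% and 39.9% of all genes called there. In gcn5 42.7% of all genes were called, in ada2b 51.6%, in ada2aspc 44.4%, in ing1 35.7% and in sdrl 35.8%. Their median fold change was -0.56 in gcn5 and -0.61 in ada2b, and between -0.28 and -0.11 in the other 6 mutants with a test. BCH2, a beta-carotene hydroxylase, averaged 2.16 ± 3.06 in ada2b, 9.06 ± 2.64 in gcn5 and 212 ± 44.1 in Col-0 (log2 fold changes -6.51, adjusted p = 2.10e-14, and -4.41, adjusted p = 3.19e-10). It also fell in spc (-2.17), spcing1 (-1.95), ing1 (-1.85), ada2aspc (-1.52) and ada2a (-1.44).

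Among 5 other tested carotenoid cleavage dioxygenases, CCD4, which degrades carotenoids in plastids, fell in all 8 mutants with a test. Its signal averaged 2564 ± 342 in ada2b, 3656 ± 255 in gcn5 and 9240.4 ± 879.9 in Col-0 (-1.85, adjusted p = 1.71e-13, and -1.34, adjusted p = 5.90e-10). The abscisic acid synthesis gene NCED3 averaged 194 ± 99.98 in ada2b, 184 ± 18.1 in gcn5 and 535 ± 88.0 in Col-0 (-1.56, adjusted p = 8.44e-07, and -1.52, adjusted p = 2.02e-06). In eaf6, described here without a test, CCD4 stood at 2510.3 ± 243. The sum of the 8 carotenoid synthesis genes in eaf6 was 18951 to 20966, against 27942 to 28233 in Col-0. The part of green tissue, whose marker genes were lower in the same mutants, was not tested.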
